A study of Mus musculus with 40 samples.

Results

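Genes of the proteasome, immunoproteasome included, were followed in RNA-seq libraries of mouse CD4+ T cells. Members were all genes whose symbol begins with Psma, Psmb, Psmc, Psmd, Psme, Psmf or Psmg followed by a digit, pseudogenes marked -ps left out. This took 50 of the 21950 genes in the table. Of these, 48 are named genes of proteasome subunits, activators, chaperones or regulators, and the other two match by spelling only: Psmc3ip, a partner of recombinases in homologous recombination, and Psme2b, an intronless copy of Psme2 that can share reads with it.

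The study asked why induced regulatory T cells (iTregs) lose their identity when stimulated again, and compared them with conventional T cells (Tconvs) and thymic regulatory T cells (tTregs). The 24 libraries form 8 groups of 3: Tconvs and tTregs were each taken resting or activated, and iTregs were taken resting, after restimulation, or after restimulation in the presence of either an ORAI inhibitor or CsA. By the methods of the study, Tconvs and tTregs were sorted from spleens of Foxp3-GFP reporter mice 2 to 4 months old, and iTregs were made from spleen cells of mice 6 weeks old whose Foxp3 reporter is given as GFP or RFP, all on a C57BL/6 background unless stated otherwise there. iTregs were made from naive T cells with antibodies against CD3 and CD28, TGF-β and IL-2 over 4 days, sorted as Foxp3+ and rested with IL-2 for 1 day. They are thus cells that had already been activated and cultured, whereas resting Tconvs and tTregs had not gone through induction, and donor age differs with cell type. Activation and restimulation used antibodies against CD3 and CD28, and their duration for these libraries is not given in the sources used here. The ORAI inhibitor, taken to be CM-4620 from the design text, blocks calcium entry through ORAI channels, and CsA (cyclosporin A) blocks calcineurin and thereby NFAT. The labels call tTregs nTregs, and give the source of the CsA libraries as Treg rather than iTreg.

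The 26S proteasome degrades ubiquitin-tagged proteins. Its 20S core is built of outer alpha rings and inner beta rings, and the proteolytic sites sit in 3 beta subunits, made by Psmb5, Psmb6 and Psmb7. The 19S cap binds, unfolds and deubiquitinates substrates. Interferon-responsive cells and lymphocytes also make Psmb8, Psmb9 and Psmb10, which replace Psmb5, Psmb6 and Psmb7 in newly assembled cores to form the immunoproteasome, known for producing peptides for MHC class I. Psme1 and Psme2 encode the interferon-inducible PA28 activator, which opens the core without the 19S cap.

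The immunoproteasome genes lie in 2 places. Psmb8 (chromosome 17, 34197721 to 34201454, plus strand) and Psmb9 (chromosome 17, 34181987 to 34187764, minus strand) lie in the MHC region beside the peptide transporter genes, and Psmb10 is on chromosome 8 (105935735 to 105938444, minus strand), all in GRCm38. The promoters of these 3 genes are shown because their transcripts rose together in activated Tconvs. Each is the 250 bases before the RefSeq start in GRCm38.p6, written 5′ to 3′ on the strand of the gene, and capitals mark the motifs found.
Psmb8, chr17:34197945-34198194, plus strand: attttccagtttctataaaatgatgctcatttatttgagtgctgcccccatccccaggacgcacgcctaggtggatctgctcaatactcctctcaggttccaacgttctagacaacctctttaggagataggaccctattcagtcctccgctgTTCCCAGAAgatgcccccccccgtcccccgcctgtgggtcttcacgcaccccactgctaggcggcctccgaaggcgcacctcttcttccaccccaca
Psmb9, chr17:34187331-34187580, minus strand: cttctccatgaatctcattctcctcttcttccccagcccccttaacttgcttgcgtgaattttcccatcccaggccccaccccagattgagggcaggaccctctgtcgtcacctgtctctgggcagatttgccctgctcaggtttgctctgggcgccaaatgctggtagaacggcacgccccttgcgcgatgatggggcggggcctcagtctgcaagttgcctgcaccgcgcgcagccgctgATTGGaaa
Psmb10, chr8:105938393-105938642, minus strand: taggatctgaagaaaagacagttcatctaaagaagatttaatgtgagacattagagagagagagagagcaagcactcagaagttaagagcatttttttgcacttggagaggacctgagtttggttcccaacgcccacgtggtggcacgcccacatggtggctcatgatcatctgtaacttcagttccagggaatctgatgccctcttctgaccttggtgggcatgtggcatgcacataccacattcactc
In the Psmb8 promoter the capitals are a gamma-activated site (TTCNNNGAA) from -97 to -89. In the Psmb9 promoter they are a CCAAT box from -8 to -4, read on the opposite strand. The Psmb10 window held none of the 4 motifs searched. The starts of Psmb9 and of the neighbouring Tap1 face each other, so their 300-base windows share 275 bases (chr17:34187306-34187580). GENCODE M21 places earlier starts for Psmb8, Psmb9 and Psmb10 than RefSeq does. The printed windows of Psmb8 and Psmb9 lie inside its gene spans, and that of Psmb10 lies inside in part, from 105938393 to 105938444.

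Motifs were searched on both strands from 250 bases before to 50 bases after each start, and 42 of the 50 members had 45 such windows. The interferon-stimulated core GAAANNGAA was in 7 windows of members (15.6%) and in 8.56% of all 32851 windows in the table. One of the 7 was that of Psme1, where it lay from 11 to 19 bases after the start. The antioxidant response element TGACNNNGC, bound by the NFE2L1 and NFE2L2 factors that can drive proteasome genes, was in 6 windows of members (13.3%) against 12.4% of all windows. Psmb5, Psmb6 and Psme4 were among the 6. The gamma-activated site was in 3 windows (6.67% against 8.3%) and CCAAT in 15 (33.3% against 37.4%). These matches describe letters and not bound sites.

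Of the 50 members, 48 passed the filter, which asked for 10 or more normalized counts in 3 or more libraries. These 48 are 46 of the named proteasome genes, with Psmc3ip and Psme2b. A normalized count is a read count divided by the size factor of its library, so levels can be compared between libraries, and levels of different genes are not compared here without their length. Psma8, the testis form of an alpha subunit, stayed between 0 and 9.24 normalized counts, and Psmb11, the catalytic subunit of thymic cortical epithelium, did not exceed 1.81. Psmb11 stayed below the floor of 3 reads, with at most 2 in a library, while Psma8 had up to 10. Neither passed the filter, so they were not tested in the main fit. In all comparisons a gene is called higher or lower when its adjusted p from limma is below 0.05 and its log2 fold change exceeds 0.5 in size.

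Libraries held 5256800 to 15685234 reads on genes, and tTreg libraries were the shallowest group, with 5256800 to 9893053. Cd3e and Cd4 were high in all 24 libraries, and Foxp3 averaged 7537 and 7312 normalized counts in resting and activated tTregs, 1280 in resting iTregs and 10.4 in resting Tconvs. Ikzf2, a marker of thymic Tregs, averaged 9403 in resting tTregs and 167 in resting iTregs. Markers of other cells were mixed. The myeloid gene Lyz2 stayed at or below 6.57 normalized counts and the B cell gene Cd79a at or below 22.6, but Ebf1, also of B cells, averaged 0 in resting and activated Tconvs, 22.7 in resting iTregs and 93.7 in restimulated iTregs. Of the CD8 genes, Cd8b1 averaged 229 in resting Tconvs and 98.8 in restimulated iTregs, while Cd8a did not exceed 13.2. Klrb1c, of NK cells, averaged 22.7 in resting Tconvs. Cd74, the gene of the invariant chain of MHC class II in antigen-presenting cells, averaged 8.22 in resting Tconvs, 355 in activated Tconvs and 486 in restimulated iTregs. The part of these markers in the results was not tested. The 2 deepest tTreg libraries (resting 1 and activated 2) stood apart from the other two of their groups in some members, and the counts that change without them are given beside the results. Nothing in the labels ties a replicate to a separate animal or culture, so p-values measure the spread between these libraries. In bulk RNA, more cells making a transcript and more transcript per cell cannot be told apart.

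Activation of Tconvs raised most proteasome genes. All 50 members, Psma8 and Psmb11 included, together took 0.692% ± 0.0175 (SD, n = 3) of the reads on genes in resting Tconvs and 1.40% ± 0.0139 in activated Tconvs. Of the 48 members, 40 rose and 0 fell, while 24.8% of all 11725 genes tested were higher and 25.5% lower. The median log2 fold change of the members was 0.82, and that of all genes was -0.03. The rise covered the alpha ring (7 of 7 genes, median 1.42), the 19S lid (8 of 8, median 0.82), the assembly chaperones of the 20S core (4 of 4, median 1.00) and all 6 catalytic genes. It was less complete in the ATPases of the 19S base, where 4 of 6 passed with a median of 0.55.

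The immunoproteasome genes showed rises of different sizes from those of their constitutive counterparts. Psmb8, the induced form of the chymotrypsin-like subunit, had 5903, 6110 and 6348 normalized counts in the 3 resting Tconv libraries and 20830, 21134 and 21970 in the 3 activated ones. Psmb9, the induced form of the caspase-like subunit, had 1113, 1163 and 1188 at rest and 4841, 5183 and 5091 after activation. Psmb10, the induced form of the trypsin-like subunit, had 736, 730 and 728 at rest and 1799, 1905 and 1882 after activation. All activated libraries lay above all resting ones in these 3 genes. The log2 fold changes were 1.80 for Psmb8 (95% interval 1.64 to 1.96, adjusted p = 9.49e-15), 2.12 for Psmb9 (1.95 to 2.30, adjusted p = 5.2e-15) and 1.35 for Psmb10 (1.18 to 1.51, adjusted p = 3.68e-12).

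Among the constitutive catalytic genes, Psmb5 had 1683, 1713 and 1757 normalized counts in resting and 2880, 2797 and 2924 in activated Tconvs. Psmb6 had 2035, 2128 and 2215 at rest and 3357, 3458 and 3536 after activation. Psmb7 had 690, 722 and 716 at rest and 1928, 1791 and 2050 after activation. These groups did not overlap either, with log2 fold changes of 0.74 (0.60 to 0.88), 0.70 (0.51 to 0.88) and 1.44 (1.20 to 1.67). Psmb7 thus had a rise close to that of its induced counterpart Psmb10, whereas Psmb5 and Psmb6 rose less than Psmb8 and Psmb9. Parts of the exons of Psmb8, Psmb9, Psmb5 and Psmb7 overlap other annotated genes (14.7%, 5.79%, 12.1% and 11.8% of exon bases), so some reads may belong to those neighbours.

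**Figure D1:**
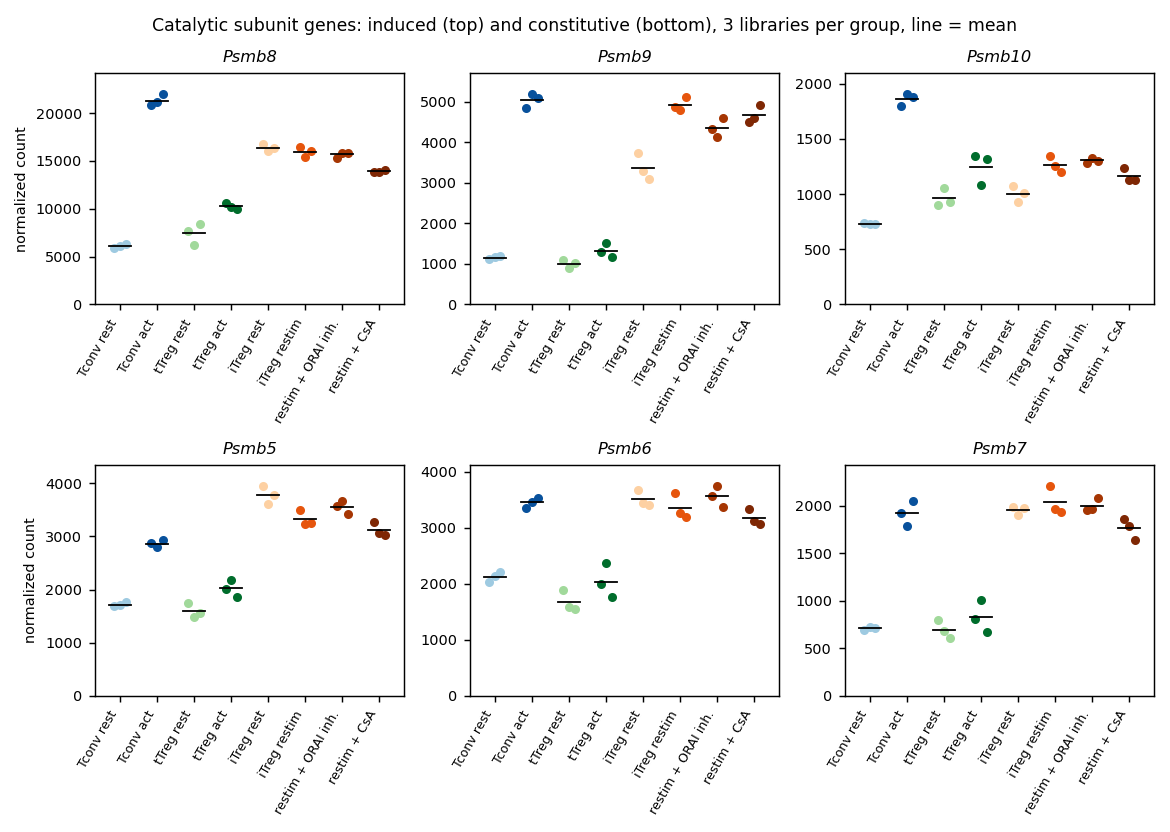
Normalized counts (vertical axes, linear, each panel with its own scale from 0) of the 3 induced catalytic genes in the top row and the 3 constitutive ones in the bottom row, by group. Points are libraries and lines are means of 3. Psmb8 and Psmb9 are highest in activated Tconvs, Psmb5 is highest in resting iTregs, and activated tTregs lie below activated Tconvs in all 6 panels.

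The log2 ratio of an induced gene to its constitutive counterpart, taken within each library, put this difference on a scale from which the size factors cancel. For Psmb8 over Psmb5 it was 1.81, 1.83 and 1.85 in resting and 2.85, 2.92 and 2.91 in activated Tconvs, a difference of 1.06 ± 0.023 (SE). For Psmb9 over Psmb6 it was -0.87, -0.87 and -0.90 at rest and 0.53, 0.58 and 0.53 after activation, a difference of 1.43 ± 0.021. For Psmb10 over Psmb7 the groups overlapped, with means of 0.04 ± 0.043 (SD, n = 3) and -0.045 ± 0.116. The balance therefore moved towards the induced gene in 2 of the 3 pairs. With 3 libraries against 3, the exact two-sided permutation test cannot go below p = 0.1. That value was reached for 21 of the 33 ratio comparisons made (Benjamini-Hochberg adjusted 0.157), among them the first 2 ratios here.

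Of the 4 activator genes 3 rose. Psme1, the alpha subunit of PA28, had 2350, 2444 and 2508 normalized counts in resting and 9587, 10334 and 9821 in activated Tconvs. Its partner Psme2, the beta subunit, had 2186, 2331 and 2232 at rest and 7555, 8384 and 7979 after activation. Psme3, which forms the nuclear PA28 gamma activator, had 238, 254 and 260 at rest and 383, 345 and 362 after activation. Activated libraries lay above resting ones in these 3, with log2 fold changes of 2.03 (1.90 to 2.15, adjusted p = 3.29e-17), 1.82 (1.67 to 1.98, adjusted p = 8.86e-15) and 0.53 (0.33 to 0.74, adjusted p = 5.45e-05). Psme4, which encodes the PA200 activator, had 401, 286 and 399 at rest and 349, 304 and 361 after activation. These groups overlapped, and the log2 difference was -0.09 with an interval of -0.39 to 0.22.

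**Figure D2:**
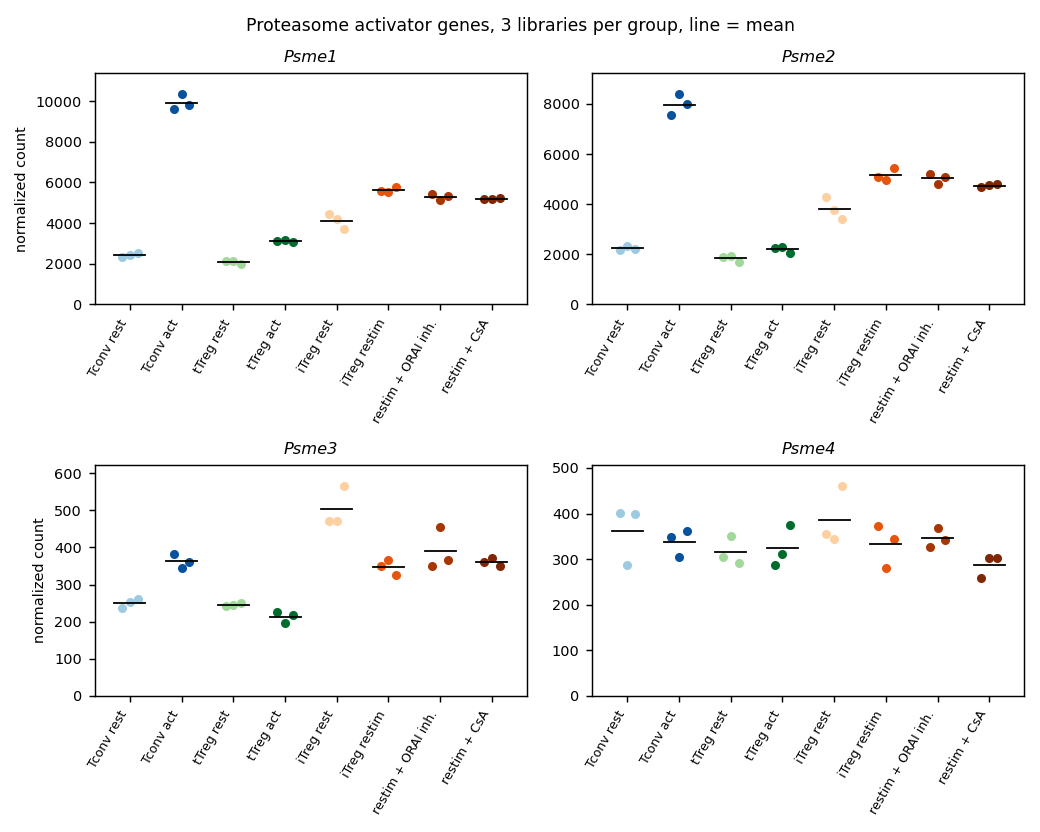
Normalized counts (vertical axes, linear, from 0) of the 4 activator genes by group, with libraries as points and means of 3 as lines. Psme1 and Psme2 are highest in activated Tconvs, Psme3 is highest in resting iTregs with 470 to 567, and Psme4 was called in 0 of the 12 comparisons.

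Beyond these, Psmc3ip had the largest change of the 48, from 46.3, 51.6 and 54.4 normalized counts in resting to 218, 263 and 228 in activated Tconvs (log2 fold change 2.20, 1.95 to 2.44, adjusted p = 7.18e-13). It is not a proteasome subunit, and 21.2% of its exon bases overlap Mlx. Psmd14, the deubiquitinating enzyme of the 19S lid, went from 984, 952 and 1072 to 3531, 3249 and 3606, a log2 fold change of 1.79. The smallest differences were those of Psme4, of the base chaperone Psmd5 (0.03, interval -0.17 to 0.23) and of the ubiquitin receptor Psmd4 (0.15, interval 0.03 to 0.27). Those 3 were among the 8 members that were not called.

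Genes around the proteasome were read from 2 further lists. Of 8 genes of peptide loading and the interferon response, 7 rose (median 1.41), beside the 24.8% of all genes given above, with log2 fold changes of 2.02 for Irf1 and 1.51 for Tap1 among them, and B2m was not called at 0.11. Of 23 proteasome partners tested, 8 rose and 4 fell (median 0.20), beside 24.8% of all genes higher and 25.5% lower. Pomp, the maturation factor of the 20S core, averaged 798 normalized counts in resting and 2557 in activated Tconvs, a log2 fold change of 1.68. Uchl5 and Sem1, which belong to the 19S cap, rose by 1.10 and 1.14 on the log2 scale. Nfe2l2, the oxidative stress factor NRF2, went from a mean of 2343 to 645 (log2 fold change -1.86).

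Activation of tTregs left the proteasome genes closer to their resting level. All 50 members took 0.737% ± 0.0424 of reads in resting and 0.852% ± 0.0576 in activated tTregs. Of the 48 members, 6 rose and 0 fell, beside 13.0% of all genes higher and 10.2% lower, so only the share called higher was close to that of all genes. The median log2 fold change was 0.31, against 0.00 for all genes. The 6 were Psmc3ip, Psmg4, Psmd6, Psmb4, Psme1 and Psmg3. A further 25 members had an adjusted p below 0.05 with a log2 fold change of at most 0.5. By adjusted p alone 31 members were higher and 0 lower, beside 2538 and 2139 of all 11725 genes. Without the library tTreg resting 1, 10 members were called in place of 6. The fit shares 1 spread per gene over all 8 groups. The median SD over members on the log2 scale was 0.152 and 0.181 in resting and activated tTregs, and 0.0611 and 0.0440 in Tconvs. Intervals and p-values of tTreg comparisons may therefore be too narrow. Fitted on only the groups compared, activation of tTregs gave 5 members, and 1707 in place of 2718 of all genes.

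Psmc3ip had 29, 31.1 and 23.9 normalized counts in resting and 53.9, 66.2 and 52.7 in activated tTregs, a log2 fold change of 1.01 (0.77 to 1.26, adjusted p = 1.06e-06). Psmg4, a chaperone of 20S assembly, had 154, 206 and 177 at rest and 366, 249 and 369 after activation (0.86, 0.56 to 1.15, adjusted p = 6.6e-05). Psmd6, a scaffold subunit of the 19S lid, had 809, 699 and 1008 at rest and 1686, 1238 and 1513 after activation (0.82, 0.60 to 1.05, adjusted p = 4.92e-06). The activated libraries lay above the resting ones in each of these genes, as the choice of named members required.

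The immunoproteasome genes of tTregs were higher after activation by amounts below the size threshold. Psmb8 had 7676, 6243 and 8440 normalized counts in resting and 10625, 10173 and 10012 in activated tTregs (log2 fold change 0.47, 0.32 to 0.63). Psmb9 had 1089, 904 and 1019 at rest and 1302, 1516 and 1175 after activation (0.40, 0.22 to 0.58). Psmb10 had 904, 1056 and 929 at rest and 1341, 1080 and 1319 after activation (0.37, 0.20 to 0.54). The groups did not overlap in any of the 3, but none was called, and the ratios of Psmb8 to Psmb5 and of Psmb9 to Psmb6 overlapped between resting and activated tTregs. The constitutive genes Psmb5, Psmb6 and Psmb7 had log2 differences of 0.34, 0.28 and 0.24 and were not called. Psme1 rose from 2142, 2149 and 1967 to 3123, 3178 and 3057 (0.58, 0.45 to 0.71, adjusted p = 2.37e-07).

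The difference between the activation responses of tTregs and Tconvs was tested as an interaction. It was called negative, that is a smaller rise or no rise in tTregs, for 25 members and positive for 0, beside 18.1% of all genes lower and 18.6% higher. Among the 25, Psme3, Psme2b and Psmf1 had negative log2 differences on activation of tTregs (-0.21, -0.12 and -0.12), and none of these was called. All activated tTreg libraries lay below all resting ones in Psme3. The median over members was -0.53 and over all genes 0.05. The largest differences were those of Psmb9 (-1.72, interval -1.97 to -1.47, adjusted p = 2.67e-10), Psme2 (-1.56, -1.78 to -1.34, adjusted p = 1.87e-10) and Psme1 (-1.44, -1.62 to -1.27, adjusted p = 1.64e-11). All 7 alpha ring genes and all 3 immunoproteasome genes were among the 25, together with Psmb7 but not Psmb5 or Psmb6, whose differences were -0.40 and -0.42. Of the 9 genes of the 19S base, only Psmc5 was called (-0.55). Psmd6 had the same log2 fold change of 0.82 in both cell types, with an interval of the difference from -0.32 to 0.32. The interaction was also negative for 6 of the 8 peptide loading and interferon-linked genes and positive for 0 of them (median -1.37).

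**Figure D3:**
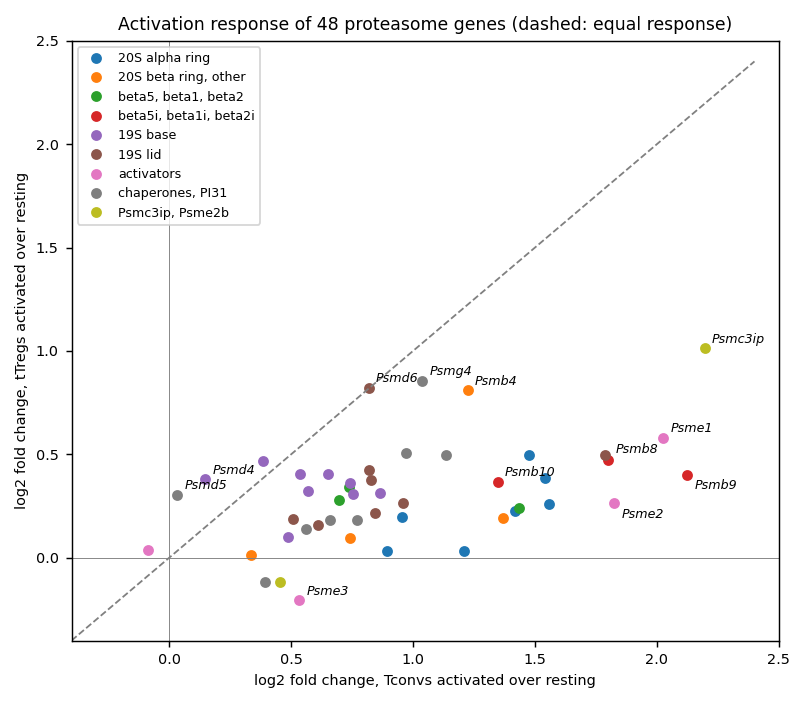
Log2 fold change on activation in Tconvs (horizontal axis) against that in tTregs (vertical axis) for 48 genes coloured by role, with equal responses on the dashed line. Psmb9, Psme1 and Psme2 lie farthest below the line, Psmd6 lies on it, and Psmd4 and Psmd5 lie above it.

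Before activation, tTregs and Tconvs were compared directly. Of the 48 members, 7 were lower in resting tTregs and 0 higher, where 18.5% of all genes were lower and 20.9% higher. The median was -0.20 (all genes -0.01). The 7 were Psmc1, Psmc3ip, Psma3, Psme2b, Psmg2, Psma5 and Psmb1. Psmc1, an ATPase of the 19S base, had 1225, 1223 and 1281 normalized counts in resting Tconvs and 601, 646 and 581 in resting tTregs (log2 fold change -1.03, -1.16 to -0.89, adjusted p = 1.46e-11). These do not overlap, as the choice of named members required. Psmc3ip was also lower (-0.84, adjusted p = 3.74e-06). Psma3, of the alpha ring, had 3338, 3276 and 3669 in Tconvs and 2466, 2018 and 2023 in tTregs (-0.66, -0.82 to -0.51, adjusted p = 1.35e-07). The immunoproteasome genes were not called, at 0.27 for Psmb8, -0.21 for Psmb9 and 0.39 for Psmb10. Without the library tTreg resting 1 the members called were 10 lower and 1 higher.

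After activation the cell types were farther apart. In activated tTregs 36 members were lower than in activated Tconvs and 0 higher, beside 22.9% of all genes lower and 25.7% higher, with medians of -0.77 for members and 0.04 for all genes. All alpha ring genes (7 of 7, median -1.50), all beta ring genes and all 4 chaperones of the 20S core were lower. In the 19S base 3 of 9 genes were lower. The largest differences were those of Psmc3ip (-2.02, -2.27 to -1.77, adjusted p = 4.9e-12), Psmb9 (-1.93, -2.11 to -1.75, adjusted p = 4.88e-14) and Psme2 (-1.85, -2.01 to -1.70, adjusted p = 1.28e-14). Psmb8 and Psmb10 were lower as well (-1.05 and -0.58). This comparison uses the same libraries as the activation responses above and adds no independent measurement.

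Resting iTregs were compared with each of the other resting cells and with activated Tconvs. All 50 members took 1.21% ± 0.0259 of reads in resting iTregs. Against resting Tconvs 36 members were higher and 1 lower, beside 34.0% of all genes higher and 30.3% lower, with a median of 0.91 (all genes 0.04). Against resting tTregs 40 were higher and 0 lower, beside 33.3% and 30.7% of all genes, with a median of 1.07 (all genes 0.03). Against activated Tconvs 0 were higher and 9 lower, beside 24.2% and 18.4% of all genes, with a median of -0.04 (all genes 0.03). In the last comparison the share of members that were lower was close to that of all genes. The 3 comparisons share the resting iTreg libraries.

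Psmb8 had 16786, 15991 and 16348 normalized counts in resting iTregs, above all resting Tconvs and below all activated ones. It was 1.42 higher than in resting Tconvs (1.26 to 1.58, adjusted p = 2.16e-13), and its log2 difference of -0.38 from activated Tconvs (-0.54 to -0.22) was below the size threshold. Psmb9 had 3730, 3288 and 3094, also between the resting and the activated Tconvs, with log2 fold changes of 1.54 (1.36 to 1.72) and -0.58 (-0.76 to -0.40) against them. Psmb10 stood lower, with 1073, 933 and 1008. It differed from resting Tconvs by 0.46 (0.29 to 0.62), which was not called, and was lower than in activated Tconvs by a log2 fold change of -0.89 (-1.06 to -0.72, adjusted p = 4.16e-09).

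Of the constitutive counterparts, Psmb6 and Psmb7 overlapped with activated Tconvs and Psmb5 lay above them. Psmb5 had 3959, 3604 and 3785 normalized counts in resting iTregs, above all Tconv and tTreg libraries, and was 1.14 higher than in resting Tconvs (1.00 to 1.28, adjusted p = 1.25e-12). Psmb6 had 3668, 3447 and 3402 (0.72, 0.54 to 0.91) and Psmb7 had 1993, 1910 and 1980 (1.47, 1.23 to 1.70). Against activated Tconvs their log2 differences were 0.40, 0.02 and 0.03, and none was called. The log2 ratio of Psmb8 to Psmb5 was accordingly 2.08, 2.15 and 2.11 in resting iTregs, between resting and activated Tconvs, and that of Psmb10 to Psmb7 averaged -0.97 ± 0.070, lower than in any Tconv or tTreg group. Ratios between different genes depend on the transcript length assumed: per kilobase, Psmb8 over Psmb5 in resting Tconv 2 was 1.97 with the principal transcripts and 0.949 with all exons joined, so which gene of a pair had the higher level was not settled.

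**Figure D4:**
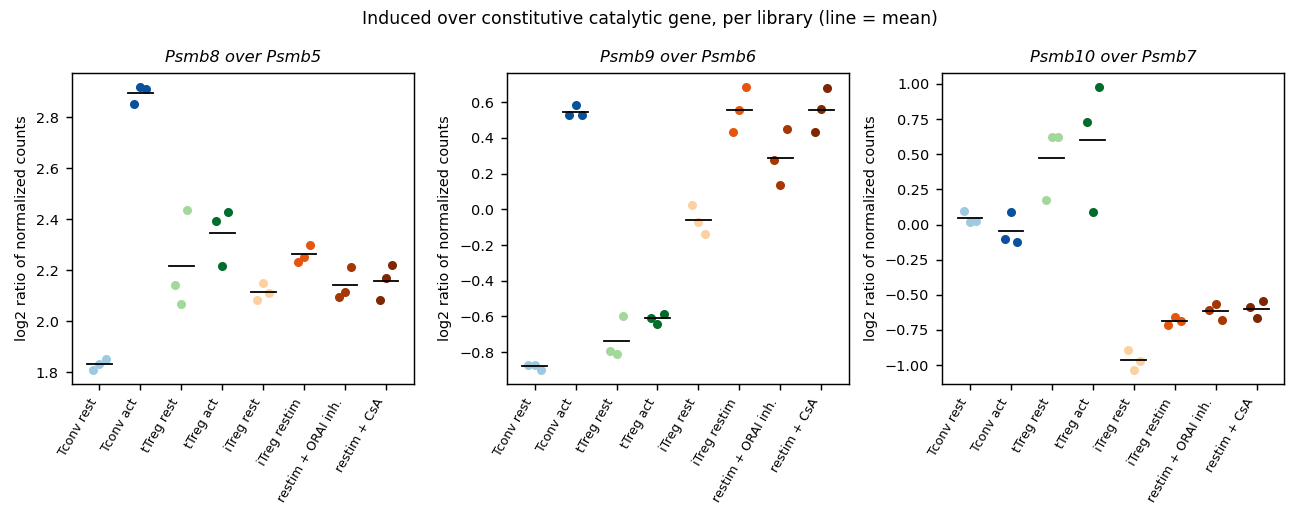
Log2 ratio of normalized counts of the induced to the constitutive gene of each catalytic pair (vertical axes), by group, with libraries as points and means of 3 as lines. Psmb8 over Psmb5 and Psmb9 over Psmb6 are highest or among the highest in activated Tconvs, and Psmb10 over Psmb7 is lowest in resting iTregs and spreads widely in tTregs.

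Other members showed how iTregs combined these levels. Psmb2, a beta ring subunit without a catalytic site, had 1003, 1086 and 1156 normalized counts in resting Tconvs and 3684, 3353 and 3376 in resting iTregs, a log2 fold change of 1.68 (1.53 to 1.84, adjusted p = 1.1e-14). Psmc3ip was 2.49 higher than in resting Tconvs and 3.33 higher than in resting tTregs (adjusted p = 3.36e-14 and 3.11e-16). Psmc1 had 2402, 2368 and 2365 in resting iTregs, 1.96 above resting tTregs (1.83 to 2.10, adjusted p = 8.74e-17). Psma5, of the alpha ring, had 1003, 759 and 858 in resting tTregs and 2914, 2912 and 2963 in resting iTregs (1.75, 1.55 to 1.96, adjusted p = 6.48e-13). The iTreg libraries lay above the others in each of these, which the choice of named members required.

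The PA28 genes of iTregs stood between those of resting and activated Tconvs. Psme1 had 4441, 4211 and 3707 normalized counts and Psme2 had 4296, 3765 and 3401. Both were 0.76 above resting Tconvs on the log2 scale and were the largest falls against activated Tconvs, at -1.27 (-1.40 to -1.14, adjusted p = 1.13e-13) and -1.07 (-1.22 to -0.91, adjusted p = 1.05e-10). Psme2b, the Psme2 copy, was lower than in resting and in activated Tconvs (-0.51 and -0.97), with 243, 306 and 275 in resting iTregs. Psme3 had 470, 472 and 567, above all Tconv and tTreg libraries, and was 1.00 higher than in resting Tconvs (0.80 to 1.20, adjusted p = 5.27e-09).

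Peptide loading and interferon-linked genes in resting iTregs took a lower place than the proteasome genes did. Of the 8, 1 was higher and 2 were lower than in resting Tconvs (median 0.13), beside 34.0% and 30.3% of all genes. The 2 lower ones were B2m (-0.59) and Irf1 (-0.53). All 8 were lower than in activated Tconvs (median -1.15), beside 18.4% of all genes. Irf1 averaged 1611 normalized counts in resting Tconvs, 6557 in activated Tconvs and 1116 in resting iTregs. Of the 23 partners, 7 were higher and 5 lower than in resting Tconvs, beside 34.0% and 30.3% of all genes, shares near those of the list. They included Pomp at a mean of 2027 (log2 fold change 1.34) and Nfe2l2 at 516 (-2.18).

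Restimulation of iTregs bears most directly on the question of the study, and it left most proteasome genes within 0.5 on the log2 scale. Of the 48 members, 1 rose and 1 fell, beside 5.02% of all genes higher and 5.36% lower, with medians of 0.01 for members and -0.01 for all genes. All 50 members took 1.23% ± 0.0227 of reads. Psmb9 rose from 3730, 3288 and 3094 normalized counts to 4879, 4793 and 5111, with all restimulated libraries above all resting ones (log2 fold change 0.55, 0.37 to 0.73, adjusted p = 8.59e-05). Psme3 fell from 470, 472 and 567 to 349, 365 and 326, with all restimulated libraries below all resting ones (-0.53, -0.73 to -0.33, adjusted p = 0.00046). Both lie just past the size threshold, and without the library iTreg resting 3 they were 0.49 and -0.44 and neither was called, while 4 members were called without iTreg resting 1 and 1 without iTreg restimulated 3.

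A further 7 members had an adjusted p below 0.05 with a smaller difference. By adjusted p alone 9 of the 48 members passed (7 higher, 2 lower), beside 2225 of all 11725 genes (1032 higher, 1193 lower). The total share of members was thus close to that of all genes. Psme1 was at 5592, 5530 and 5754 after restimulation (log2 difference 0.45, 0.33 to 0.58), and Psme2 at 5101, 4959 and 5461 (0.44, 0.28 to 0.60). Psmb10 was at 1349, 1251 and 1204 (0.34, 0.17 to 0.50). In these 3 genes, as in Psmb9, restimulated libraries lay above resting ones. Psma7, Psmd4 and Psmd8 also had positive differences, of 0.21, 0.18 and 0.35, and Psmc1 a negative one of -0.27. Psmb8 overlapped between the states, with 16450, 15382 and 16060 after restimulation (-0.04, -0.19 to 0.12). The constitutive genes had log2 differences of -0.18 (Psmb5), -0.07 (Psmb6) and 0.06 (Psmb7), none called.

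All 3 log2 ratios of induced to constitutive genes were nonetheless higher after restimulation without overlap. That of Psmb9 to Psmb6 went from a mean of -0.06 ± 0.081 to 0.56 ± 0.125, a difference of 0.62 ± 0.086 (SE), beside a mean of 0.55 in activated Tconvs. That of Psmb10 to Psmb7 differed by 0.28 ± 0.044 and that of Psmb8 to Psmb5 by 0.15 ± 0.028, which was 0.048 under quantile normalization. Each had the smallest exact permutation p of 0.1. Of the 8 peptide loading and interferon-linked genes, 3 rose and 0 fell, beside 5.02% of all genes higher, among them Irf1 (0.98) and Tap1 (0.63). Tap1, which faces Psmb9 across the shared promoter, averaged 3633 normalized counts in resting and 5626 in restimulated iTregs, and 5.79% of the exon bases of Psmb9 overlap it. Of the 23 partners, 0 rose and 3 fell: Ubqln2 (-1.41), Akirin2 (-0.83) and Zfand5 (-0.73).

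The inhibitors asked which of these differences depend on calcium entry and NFAT. No proteasome gene was called with either. With the ORAI inhibitor 0 members were higher and 0 lower than in restimulated iTregs, where 1.05% of all genes were higher and 0.930% lower. With CsA 0 were higher and 0 lower, beside 0.955% and 0.640% of all genes. Between the ORAI inhibitor and CsA 0 members were called, beside 0.00853% of all genes higher and 0.0768% lower. At shares this small, 0 calls among 48 members does not set them apart from all genes. The calls were 0 in these 3 comparisons with edgeR and with DESeq2 as well. At an unadjusted p below 0.05 the ORAI inhibitor gave 2 members with limma, 1 with edgeR and 2 with DESeq2. CsA gave 1 with each tool, and the comparison of the inhibitors gave 4, 2 and 3. The shares of all genes at that threshold with limma were 14% with the ORAI inhibitor, 14.8% with CsA and 6.25% between the inhibitors.

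The intervals bound what may have been missed. Over the 48 members the log2 differences under the ORAI inhibitor ran from -0.18 (Psmb9) to 0.16 (Psme3), and the outermost bounds of their 95% intervals were -0.36 and 0.37. Under CsA they ran from -0.21 (Psmb7) to 0.13 (Psmg4), with outermost bounds of -0.51 and 0.43. The medians were 0.01 with the ORAI inhibitor and -0.07 with CsA (all genes 0.01 and -0.00). With CsA 37 of the 48 differences were negative and 11 positive, while 49.4% of all genes were positive. All 50 members took 1.23% ± 0.0182 of reads with the ORAI inhibitor and 1.17% ± 0.0118 with CsA. All CsA libraries (1.16% to 1.18%) lay below all restimulated ones (1.21% to 1.25%). Between the inhibitors the differences ran from -0.19 to 0.27. The 2 inhibitors share the restimulated libraries as control, and they act at different steps of the same pathway.

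For Psmb9 the libraries with the ORAI inhibitor had 4320, 4127 and 4589 normalized counts and those with CsA 4493, 4598 and 4910. The ORAI inhibitor libraries lay below all restimulated ones and above all resting ones, with a log2 difference of -0.18 (-0.36 to -0.00, adjusted p = 0.34), and the CsA libraries overlapped the restimulated ones (-0.08, -0.26 to 0.10). Psme3 had 350, 454 and 366 with the ORAI inhibitor and 362, 370 and 349 with CsA, both overlapping restimulated iTregs. Psmb8 had 15304, 15858 and 15881 with the ORAI inhibitor and 13868, 13806 and 14073 with CsA. All CsA libraries lay below the restimulated ones in Psmb8 (-0.20, -0.35 to -0.04), but the difference did not pass (adjusted p = 0.19). The log2 ratio of Psmb8 to Psmb5 was lower than in restimulated iTregs with both inhibitors, with means of 2.14 ± 0.062 and 2.16 ± 0.070 against 2.26 ± 0.035, each at the smallest exact permutation p of 0.1. The other pairs did not share this: Psmb9 over Psmb6 differed by -0.27 with the ORAI inhibitor and by -0.00 with CsA, and Psmb10 over Psmb7 by 0.07 and 0.09, all overlapping restimulated iTregs (exact permutation p = 0.2, 1.0, 0.2 and 0.2). None of the 8 peptide loading and interferon-linked genes was called with either inhibitor, and Tap1 averaged 4549 and 4878.

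**Figure D5:**
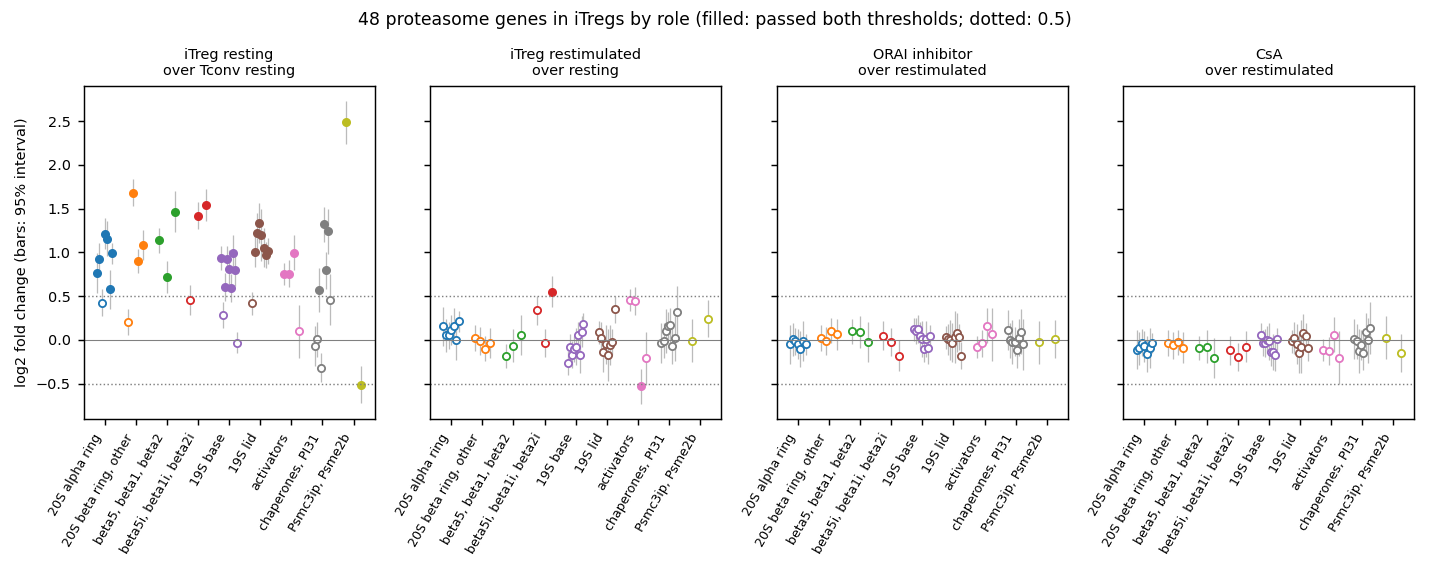
Log2 fold change (vertical axis, bars are 95% intervals) of 48 genes by role in 4 comparisons of iTregs, filled where both thresholds were passed and with dotted lines at 0.5 and -0.5. Most genes are filled above 0.5 in resting iTregs over resting Tconvs, 2 are filled after restimulation, and 0 are filled with either inhibitor.

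Across all 8 groups the members differed in how far they ranged. The highest group mean was in activated Tconvs for 21 of the 48 and in resting iTregs for 10, and the lowest was in resting tTregs for 35 and in resting Tconvs for 9. The ratio of highest to lowest group mean was 5.02 for Psmb9 and 4.75 for Psme1, below the 10.4 of Psmc3ip. At the other end it was 1.23 for Psmd5, 1.32 for Psmd4 and 1.35 for Psme4. Genes of the same complex therefore differed several-fold in range, with the induced catalytic gene Psmb9 and the PA28 gene Psme1 at the wide end and a base chaperone, a ubiquitin receptor and PA200 at the narrow end.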

How the data were processed

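RNA-seq libraries were made by the authors with a modified SMART-seq2 protocol, trimmed with cutadapt 1.18, aligned with STAR 2.5.3 to mm10 and quantified with RSEM 1.3.0. The deposited table holds a signal, gene counts that the authors had divided by DESeq2 (1.26) size factors. Whole reads were recovered for 100% of values (tolerance 0.01), giving 5256800 to 15685234 reads per library. Floors of 3 reads cover counting error only.

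The filter kept genes that reached 10 normalized counts in 3 or more of the 24 libraries (11725 of 21950). limma 3.58.1 (R 4.3.3) was fitted with a mean-dependent prior to log2(normalized count + 1) over all libraries, so fold changes of low genes are understated, and p-values were adjusted by Benjamini-Hochberg over all genes. edgeR 4.0.16 and DESeq2 1.42.0 on the recovered reads, TMM and quantile scaling, other pseudocounts and filters, a replicate block and leaving out libraries were tried as alternatives. The fit was tested on simulated data. Named members were the 3 with the largest called change in each direction of a comparison, without overlap between the groups, besides the catalytic and activator genes. Psmd14 and the members of smallest change were chosen after their values were seen. Members and gene lists were chosen with earlier results of these data known. Gene positions are from GENCODE M21 and promoters from RefSeq (GRCm38.p6). Samples of the series for chromatin assays were not analysed here. Values of some listed genes are not reported here.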

Additional observations from a re-analysis of the deposited data

Results flagged for a closer look

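The activation response differed between tTregs and Tconvs, by the limma interaction at both thresholds, in 25 members, all with the smaller rise or no rise in tTregs. Of the 25, 23 are among the 46 named proteasome genes tested, and the others are Psmc3ip and Psme2b. The values are the log2 response of tTregs minus that of Tconvs. In the immunoproteasome they were -1.72 for Psmb9, -1.33 for Psmb8 and -0.98 for Psmb10, and for the constitutive Psmb7 -1.20. Among the activators they were -1.56 for Psme2, -1.44 for Psme1 and -0.74 for Psme3, with -0.57 for the copy Psme2b. In the alpha ring they were -1.30 for Psma4, -1.19 for Psma2, -1.17 for Psma1, -1.16 for Psma5, -0.98 for Psma7, -0.86 for Psma6 and -0.75 for Psma3. In the rest of the beta ring they were -1.17 for Psmb2 and -0.64 for Psmb3. In the 19S cap they were -1.29 for Psmd14, -0.69 for Psmd3, -0.63 for Psmd13 and -0.55 for Psmc5. For the chaperones Psmg1 and Psmg2 they were -0.63 and -0.59, for the regulator Psmf1 -0.51 and for Psmc3ip -1.18. The tTreg libraries were the shallowest and had a larger spread between replicates than the Tconv libraries, with a median SD over members of 0.152 at rest and 0.181 after activation on the log2 scale. The part of either in these differences was not tested.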

How the results depend on the processing

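Over 227 alternatives to the counts of called genes 207 stayed within 1.5 times the reported count. Over 330 alternatives to the ratio differences 322 moved by less than 1 SD between replicates. The 8 that moved were all under quantile normalization, which was applied to each of the 33 ratio comparisons. Leaving out 1 library of 3 cannot move a difference by 1 SD, and scaling of whole libraries nearly cancels in a ratio. Those alternatives could thus not differ by that measure. Single-gene alternatives were compared for 135 results, those of the catalytic and activator genes and of the other named members. Calls of further members were not checked for direction. No called gene among the 135 and no ratio difference between groups without overlap changed direction. For groups without overlap this was fixed in advance when 1 library was left out. Filters, the replicate block and other thresholds left the fold change as it was, so they could not change direction either. However, 11 of the 330 ratio alternatives and 21 of 2550 single-gene alternatives changed the sign of a difference between overlapping groups or of an uncalled gene. For example, Psmb10 over Psmb7 on activation of tTregs ran from -0.06 to 0.38 when 1 library was left out. With a log2 fold change above 1, activation of Tconvs left 17 genes, activation of tTregs 1, the difference between these responses 12, resting tTregs against resting Tconvs 1, activated tTregs against activated Tconvs 18, resting iTregs against resting Tconvs 17 and against activated Tconvs 2, and restimulation 0. In the same order, 3126, 842, 2159, 2357, 2880, 4959, 2716 and 461 of all 11725 genes passed. With the adjusted p from limma alone, the counts were 31 for activation of tTregs, 41 for the difference between responses, 29 for resting tTregs against resting Tconvs (4 higher, 25 lower), 29 for resting iTregs against activated Tconvs (11 higher, 18 lower) and 9 for restimulation (7 higher, 2 lower), so the calls for resting tTregs and resting iTregs were then mixed in direction. Of all 11725 genes, 4677, 5138, 6407, 6849 and 2225 passed in the same order. Leaving out 1 library at a time gave 6 to 10 genes for activation of tTregs and 6 to 11 for resting tTregs against resting Tconvs, both highest without tTreg resting 1, and 22 to 31 for the difference between responses. For restimulation it gave 0 to 4 genes, 0 without iTreg resting 3, 1 without iTreg restimulated 3 and 4 without iTreg resting 1. An alternative chosen after seeing the data, without both deeper tTreg libraries, gave 11 genes for resting tTregs against resting Tconvs.

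Quantile normalization moved the median of all genes to -0.11 in resting iTregs against resting and against activated Tconvs, and gave 1 gene, Psmb9, for restimulation. It moved the ratio difference of Psmb8 to Psmb5 to 0.86 for activation of Tconvs, 0.65 for resting and -0.15 for activated tTregs against Tconvs, 0.42 and -0.44 for resting iTregs against resting and activated Tconvs, and 0.048 for restimulation. That of Psmb9 to Psmb6 moved to 1.35 for activation of Tconvs and -1.11 for activated tTregs against Tconvs. The cause was not tested. A replicate block gave the same count in 12 of 12 comparisons, for example 40 genes for activation of Tconvs. Whether shared replicate numbers pair libraries is not stated in the labels, and not every same-number pair correlated above 0.1, so the block was kept as an alternative. Among iTreg libraries 8 of 18 same-number pairs did (mean r 0.107) against 0 of 36 pairs of other numbers (mean r -0.0536), and 10 of 12 libraries correlated best with their own number. This is a hint from the data, not from the design. The limits are 3 libraries a group, the shallow tTreg libraries, and differences near 0.5 whose call depends on the threshold.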
